A study of Mus musculus with 11 samples.

Results

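Newborn mouse ovaries lacking Sohlh2 (Sohlh2 KO) were compared with wild-type newborn ovaries on Illumina MouseWG-6 v2 BeadChips, across all genes with an annotated probe. The comparison used 7 of the 11 arrays of the study, the 3 titled Sohlh2 KO (replicates 2, 3 and 4) and the 4 titled Wildtype (replicates 1 to 4). Both groups were of the C57BL/6/129S6/SvEv background, and the labels give the tissue as ovary and the age as newborn. The other 4 arrays carried Sohlh1 KO ovaries of the same strain and age. They helped to estimate the spread and are compared with Sohlh2 KO at the end. The labels do not say which part of Sohlh2 was deleted, whether ovaries were pooled, or whether replicates were separate animals, so p values measure the spread between these arrays, which may be technical.

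Sohlh2 and its partner Sohlh1 encode germ cell transcription factors with a basic helix-loop-helix domain, a class of proteins that binds short DNA motifs called E-boxes. In the newborn ovary, oocytes that have passed through the early stages of meiotic prophase become enclosed by pregranulosa cells to form primordial follicles. In mice these factors are known to be needed for the growth of the oocyte from that stage onward, with expression of the zona pellucida proteins, secreted growth factors and maternal stores. The comparison asks which transcripts of the newborn ovary depend on Sohlh2.

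The chip sets a limit on every difference below. All 4 wild-type arrays lay on chip 1 and all 3 Sohlh2 KO arrays on chip 2, so no value within 1 chip exists for this comparison. The 4 Sohlh1 KO arrays were split evenly over the chips, 2 on each. A second fit with chip as a block therefore subtracted the Sohlh1 KO difference between chips from each Sohlh2 KO difference. For that subtraction to be right, the chips must affect both genotypes alike, which cannot be checked here. In the Sohlh1 KO arrays the chip difference had a median size of 0.199 on the log2 scale, and it reached 1 or more for 133 genes. Its differences also carry the spread of the Sohlh1 KO arrays, with 2 on each chip, so they are less precise. A call can thus be lost without a smaller difference. Values from that second fit are given below where it changed the call of a named gene or the count of a gene list.

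Levels are normalized log2 intensities, on which a step of 1 is a doubling, and the values of a group are listed in the order of the replicate numbers. Of 45281 probes, 45.2% to 48.1% were above background on the Sohlh2 KO arrays, against 48.7% to 52.6% on the wild-type arrays. Background was the 95th percentile of probes for olfactory receptor genes, and levels near 5 lie at it. Arrays correlated at 0.989 to 0.992 within Sohlh2 KO, 0.986 to 0.992 within wild type and 0.932 to 0.949 between the groups. Wild type 4 stood apart from the other wild-type arrays at several germ cell genes described below. Where only some arrays of a group were above background, the size of a fold depends on the floor. A gene is given by its brightest probe, and further probes are given where their call differed. Further probes of Aurkc, Col4a4, Dppa4, Fbxw27, Igf2bp1, Obox5, Omt2b, Sall4, Sec14l3, Spo11 and Tcl1b2 were called in the same direction as the brightest, but at least 1 probe of each had a log2 difference smaller in size by over 1. The ovary markers Amhr2 and Dazl were above background on all 7 arrays. The 2 wild-type arrays numbered 2 and 3 carry a letter b in their titles that is not explained.

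Of 13350 genes tested, 1732 were lower (13%) and 1671 were higher (12.5%) in Sohlh2 KO at an adjusted p under 0.05 (limma, Benjamini-Hochberg). Every count of a gene list below is to be read beside these shares. The gene lists and their members were chosen with earlier results of these data known, so their counts partly follow from that choice. The falls were the larger changes. At 2-fold or more, 821 genes were lower (6.15%) and 392 higher (2.94%), at 4-fold or more 291 were lower and 89 higher, and at 32-fold or more 23 were lower and 3 higher. The groups did not overlap for 2592 genes that were lower (19.4%) and 3204 that were higher (24%), whether or not they passed the test. The median log2 difference of all genes was 0.04. Sizes depended on the background correction, and without it the log2 differences of Taf7l and Zp3 were 4.68 and -4.58, against 6.49 and -5.62. The balance of the small changes depended on the scaling, with 1645 lower and 1857 higher after median scaling and 2004 lower and 1233 higher after cyclic loess.

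Falls and rises sat at different wild-type levels. The wild-type level is itself a term of the difference, so high levels lean to falls and low levels to rises. Among the 630 genes with a wild-type level of 12 and over, 10.6% were lower and 5.4% were higher. Among the 3312 genes under 6, 6.73% were lower and 13.6% were higher, and a gene near background has little room to fall. All 89 rises of 4-fold or more came from genes with a wild-type level under 10, whereas 56 of the 291 falls of that size came from genes at 10 to 12 and 14 from genes at 12 and over. The probe of 319 genes was above background on all 4 wild-type arrays and on 0 of the 3 Sohlh2 KO arrays, and 276 of these were called lower. The reverse held for 74 genes, 68 of them called higher. Genes off on all wild-type arrays passed the filter only through knockout arrays, so their calls as higher are partly set by the filter.

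**Figure D1:**
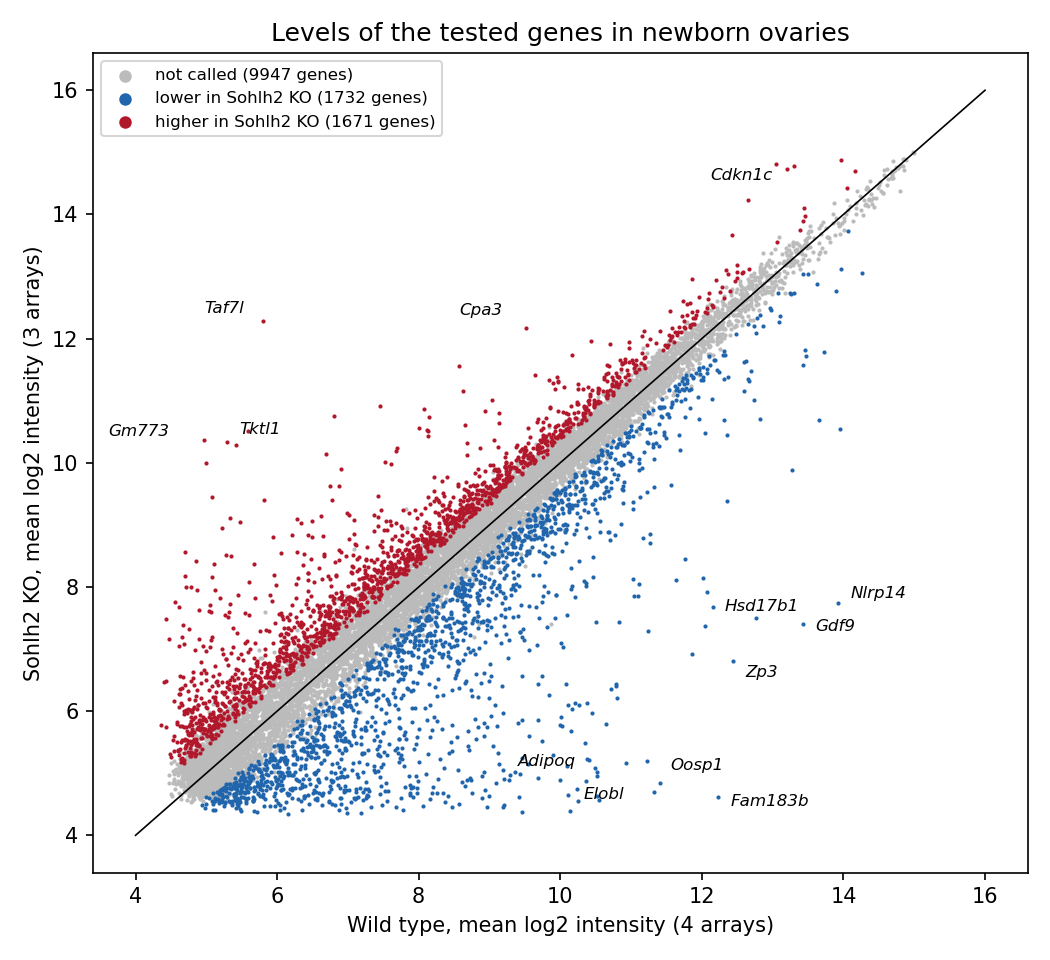
Mean log2 intensity of each tested gene in Sohlh2 KO (vertical axis, 3 arrays) and in wild type (horizontal axis, 4 arrays), with called genes in colour and the line of equal level in black. The falls reach to the floor of the plot from wild-type levels of up to about 12, while the largest rises start from wild-type levels near 5.

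With chip as a block, 1036 genes were lower (7.76%) and 676 were higher (5.06%). Of the 3403 genes called without it, 3384 kept their direction and 1491 were called again. Of the 1213 called genes that differed by 2-fold or more, 1006 were called again and 2 turned sign. A further 221 genes were called only with chip as a block. Cd9, Uhrf1, Gata2, Ucp1 and Myh8 lost their call in that fit although their differences were no smaller than without the block. Their log2 differences there were -0.82, -0.61, 0.74, 1.14 and 2.52. Among called genes named below against wild type, the fold moved by over 1.5 times for Kit and Rspo2, where values are given, and for a few others. In that fit the log2 difference was 4.79 for Tpsab1, against 2.99, 4.35 for Magea2, against 3.56, and -1.54 for Aurka, against -0.83. It was 2.24 for Dazl, against 1.51, -5.15 for Cyp17a1, against -4.48, 5.67 for Rhox13, against 5, and 1.93 for S100a9, against 2.61.

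**Figure D2:**
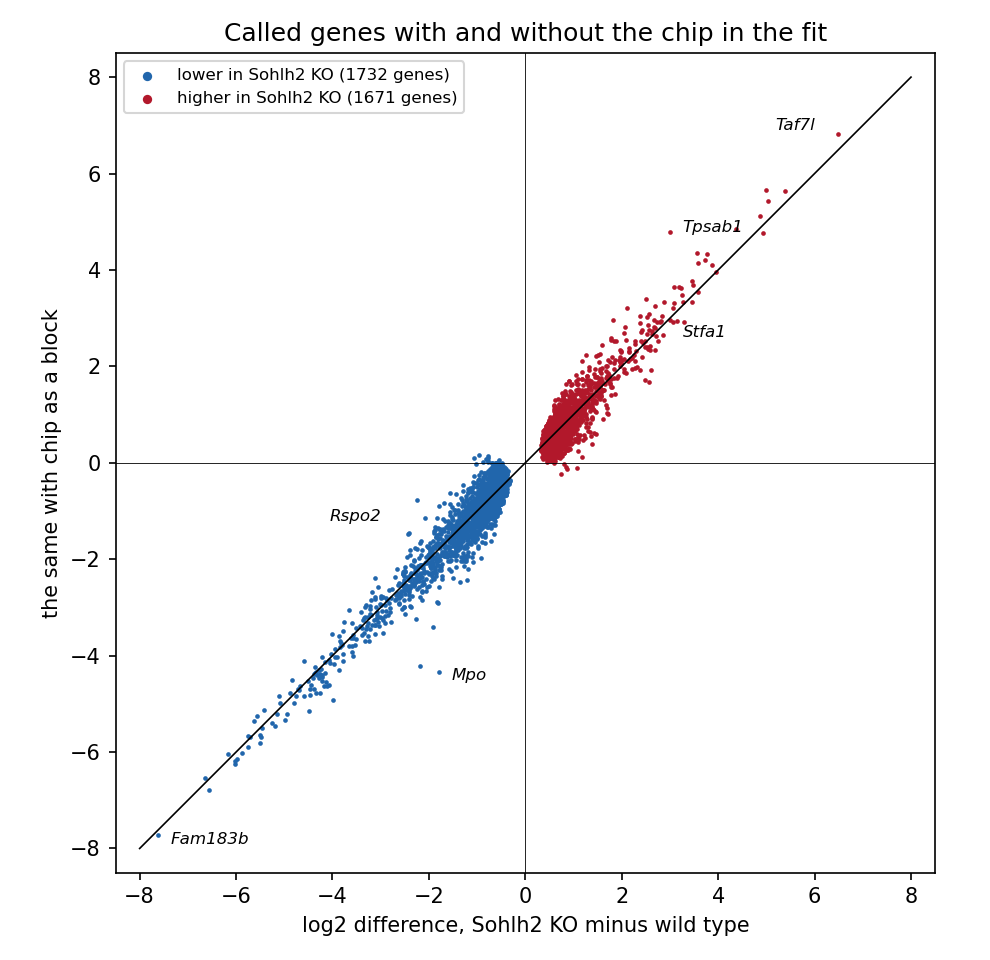
Log2 difference of the 3403 called genes in Sohlh2 KO against wild type (horizontal axis) and the same difference with chip as a block (vertical axis), with the line of equality. Most points lie along the line and all but 19 keep their sign.

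Of the 2 targeted genes of the study, Sohlh1 fell in Sohlh2 KO. It read 8.58, 8.78 and 8.75 in Sohlh2 KO, against 11.23, 11.13, 11.23 and 11.47 in wild type, and fell 5.9-fold (log2 difference -2.56, SE 0.16, adjusted p = 7.43e-08). The groups did not overlap, and every Sohlh2 KO array still read well above background. The Sohlh2 probe was faint, at 4.66, 4.76 and 4.68 in Sohlh2 KO, against 4.99, 5.06, 4.83 and 5.17 in wild type. It was above background on 0 of 3 Sohlh2 KO arrays and 3 of 4 wild-type arrays, and its difference did not pass (adjusted p = 0.284). With the chip in the fit the sign turned, at 0.27. Whether the probe lies in the deleted part is not given, so it checks the labels only weakly.

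Secreted and surface proteins of the oocyte gave the first group of falls. Of 8 tested genes of this group 7 fell and 0 rose, with a median log2 difference of -3.49. Zp3, the sperm-binding protein of the zona pellucida, read 6.3, 7.06 and 7.08 in Sohlh2 KO, against 12.51, 12.45, 12.67 and 12.11 in wild type. It fell 49.2-fold (log2 difference -5.62, SE 0.24, adjusted p = 2.04e-09). Zp1, a further zona protein, fell 42.6-fold (log2 difference -5.41, SE 0.2, adjusted p = 4.39e-10). Zp2 was faint in both groups, at 5.1, 4.6 and 5.01 in Sohlh2 KO, against 6.51, 6.46, 6.34 and 6.18 in wild type, and was at least 2.34-fold lower in Sohlh2 KO. The oocyte-secreted protein Oosp1 read 4.86, 5.09 and 4.59 in Sohlh2 KO, against 11.48, 11.73, 11.06 and 11.35 in wild type. Its 3 Sohlh2 KO values lay near background and none came within 5 log2 units of a wild-type value. Oosp1 fell 94.3-fold, Oosp2 21.7-fold and Oosp3 at least 4.42-fold. Cd9, a membrane protein needed for sperm-egg fusion that many other cells also make, fell 1.66-fold (adjusted p = 0.0047), a call that the chip block did not keep (adjusted p = 0.0684). The sperm receptor gene Izumo1r was near background in both groups and its difference did not pass (log2 difference -0.16).

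Promoter windows of 4 genes are shown here because they belong to 2 of the deepest falls (Zp3 and Oosp1) and 2 of the largest rises (Taf7l and Tktl1), and because Sohlh2 belongs to a family of E-box binding proteins. Each window runs from 250 bases before to 50 bases after the RefSeq gene start (GRCm38.p6), in the direction of the gene. Capitals mark every match to the E-box letters CANNTG, which read the same on both strands.
Zp3: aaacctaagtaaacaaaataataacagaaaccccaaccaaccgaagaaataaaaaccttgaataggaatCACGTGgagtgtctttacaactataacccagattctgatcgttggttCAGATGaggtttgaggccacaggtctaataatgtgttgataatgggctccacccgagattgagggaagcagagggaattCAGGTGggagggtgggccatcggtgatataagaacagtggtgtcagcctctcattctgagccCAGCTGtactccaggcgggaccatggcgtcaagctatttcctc
Oosp1: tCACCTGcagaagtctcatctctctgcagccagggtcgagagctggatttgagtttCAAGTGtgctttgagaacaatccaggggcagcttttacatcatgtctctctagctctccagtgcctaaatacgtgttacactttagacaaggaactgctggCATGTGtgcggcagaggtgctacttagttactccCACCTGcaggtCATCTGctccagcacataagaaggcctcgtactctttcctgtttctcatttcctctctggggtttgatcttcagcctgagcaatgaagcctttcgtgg
Taf7l: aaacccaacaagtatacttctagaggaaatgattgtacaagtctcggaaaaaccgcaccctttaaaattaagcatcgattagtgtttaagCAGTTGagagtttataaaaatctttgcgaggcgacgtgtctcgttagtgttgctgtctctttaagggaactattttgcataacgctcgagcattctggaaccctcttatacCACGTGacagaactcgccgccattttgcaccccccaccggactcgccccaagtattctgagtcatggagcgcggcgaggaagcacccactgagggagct
Tktl1: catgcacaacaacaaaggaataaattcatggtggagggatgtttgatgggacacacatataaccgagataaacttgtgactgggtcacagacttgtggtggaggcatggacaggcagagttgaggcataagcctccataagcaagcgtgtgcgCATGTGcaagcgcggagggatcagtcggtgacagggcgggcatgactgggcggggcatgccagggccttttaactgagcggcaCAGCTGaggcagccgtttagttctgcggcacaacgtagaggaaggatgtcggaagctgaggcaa
The Zp3 window (chr5:135979855-135980154, plus strand) held 4 matches, of which CACGTG began at -181 and CAGCTG at 8 relative to the gene start. The Oosp1 window (chr19:11691002-11691301, minus strand) held 5 matches. The windows of Taf7l (chrX:134476441-134476740, minus strand) and Tktl1 (chrX:74177009-74177308, plus strand) held 2 each. A window was also found for Rhox13, a further large rise, and is not printed. It held 1 match, CACATG at -214. Windows of Zp1, Zp2, Gdf9, Nlrp14 and Npm2 were sought and not found. These counts describe the letters only and do not show binding.

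Matches to CANNTG were common everywhere, so single windows say little. A match was present in 79.7% of the 232 windows found for genes that fell 4-fold or more and in 72.9% of the 70 found for genes that rose 4-fold or more. The share was 65.1% of the windows of all 10703 tested genes with one and 72.1% of all 27025 windows in the table. The form CAGCTG, which is counted within CANNTG too, was present in 25% of the windows of the falls, 14.3% of those of the rises and 15.8% of those of all tested genes. For the form CACGTG the shares were 8.62%, 8.57% and 9.75% of the same windows. For TAATTA, a core of homeodomain binding motifs that reads the same on both strands, they were 3.45%, 10% and 2.79%. The share of windows with any E-box match was thus highest among the falls, and the share with TAATTA was highest among the rises, which rests on 7 windows. No test was made of these shares.

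The growth factors that oocytes send to the surrounding follicle cells fell as well, and so did the receptor Kit. Gdf9, which acts on granulosa cells, read 6.94, 7.69 and 7.57 in Sohlh2 KO, against 13.57, 13.56, 13.30 and 13.28 in wild type. It fell 65.3-fold (log2 difference -6.03, SE 0.17, adjusted p = 6.86e-11). Bmp15, its X-linked relative, read 6.29, 6.52 and 6.52 in Sohlh2 KO, against 10.82, 10.98, 10.63 and 10.74 in wild type, and fell 20.4-fold. Both genes still lay above background on every Sohlh2 KO array. Fgf8, a growth factor made by oocytes, was at least 4.39-fold lower, with all 3 Sohlh2 KO arrays at or under background. Kit, the oocyte receptor for the follicle's Kit ligand, read 9.37, 9.59 and 9.23 in Sohlh2 KO, against 10.46, 10.44, 10.49 and 10.57 in wild type. It fell 2.13-fold, a call that the chip block did not keep (log2 difference -0.51, adjusted p = 0.221). Of 16 tested genes of KIT and PI3K signalling, Kit fell, Mtor, a growth-control kinase of this pathway, rose 1.49-fold, and the other 14 did not pass. The Mtor call was not kept by the chip block either (adjusted p = 0.137).

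Nearly all tested genes for maternal stores of the egg fell. Of 18 tested genes of the subcortical maternal complex and egg cytoplasm 17 fell and 0 rose. The list had a median log2 difference of -2.97, which was -2.87 when genes off in Sohlh2 KO were set to their bound, and 16 were called lower with chip as a block. Npm2, the oocyte nucleoplasmin that remodels chromatin after fertilization, read 4.73, 4.76 and 5.15 in Sohlh2 KO, against 10.51, 10.48, 10.22 and 10.27 in wild type, and fell 45-fold. The oocyte-specific genes Omt2a and Omt2b fell 36.8-fold and 28.8-fold. Tcl1b2, of the Tcl1 gene family, fell at least 5.05-fold. Spin1, an egg chromatin reader, was the member that did not pass, at 9.2, 9.11 and 9.04 in Sohlh2 KO, against 9.94, 9.51, 9.63 and 9.64 in wild type (adjusted p = 0.0541).

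The NLR and Oas1 families of the oocyte fell unevenly. Of 9 tested NLR genes 7 fell and 1 rose, and with chip as a block 5 fell and 0 rose. Nlrp14, which is needed for embryos to develop past the first cleavages, read 8.05, 7.43 and 7.77 in Sohlh2 KO, against 14.23, 14.09, 13.66 and 13.71 in wild type. It fell 72.2-fold (log2 difference -6.17, SE 0.18, adjusted p = 9.08e-11) and was still above background on every Sohlh2 KO array. Nlrp4a was at least 6.66-fold lower and Nlrp9a at least 5.31-fold. The member that rose, named after its values were seen, was Nlrp4c, at 8.7, 8.74 and 8.85 in Sohlh2 KO, against 8.46, 8.05, 8.18 and 8.04 in wild type. Its change was small beside those of its relatives (1.49-fold, adjusted p = 0.00828; 0.256 with chip as a block). Of 5 tested Oas1-like genes 3 fell. Oas1d, an oocyte member of this family without the enzyme activity of its relatives, read 7.62, 8.25 and 7.88 in Sohlh2 KO, against 12.19, 12.15, 12.15 and 11.80 in wild type, and fell 17.8-fold. Oas1c fell 7.77-fold and Oas1e 16.1-fold.

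All 11 tested members of a list of germline ubiquitin-related and Prame-like genes fell, with a median of -5.1. Members of this list were chosen with earlier results of these data known, so its count and median are not independent support. Elobl, an elongin B relative, read 4.56, 4.75 and 4.77 in Sohlh2 KO, against 11.62, 11.55, 11.32 and 10.84 in wild type. It was at least 72.9-fold lower, with 0 of 3 Sohlh2 KO arrays above background. Fbxw15, an F-box protein gene, fell 65.4-fold, and its relative Fbxw27 was at least 34.2-fold lower. Probes of such families of close copies, and those of the Obox, Oas1, Mage and tryptase genes, may also bind other copies, so these values are uncertain as to the member.

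**Figure D3:**
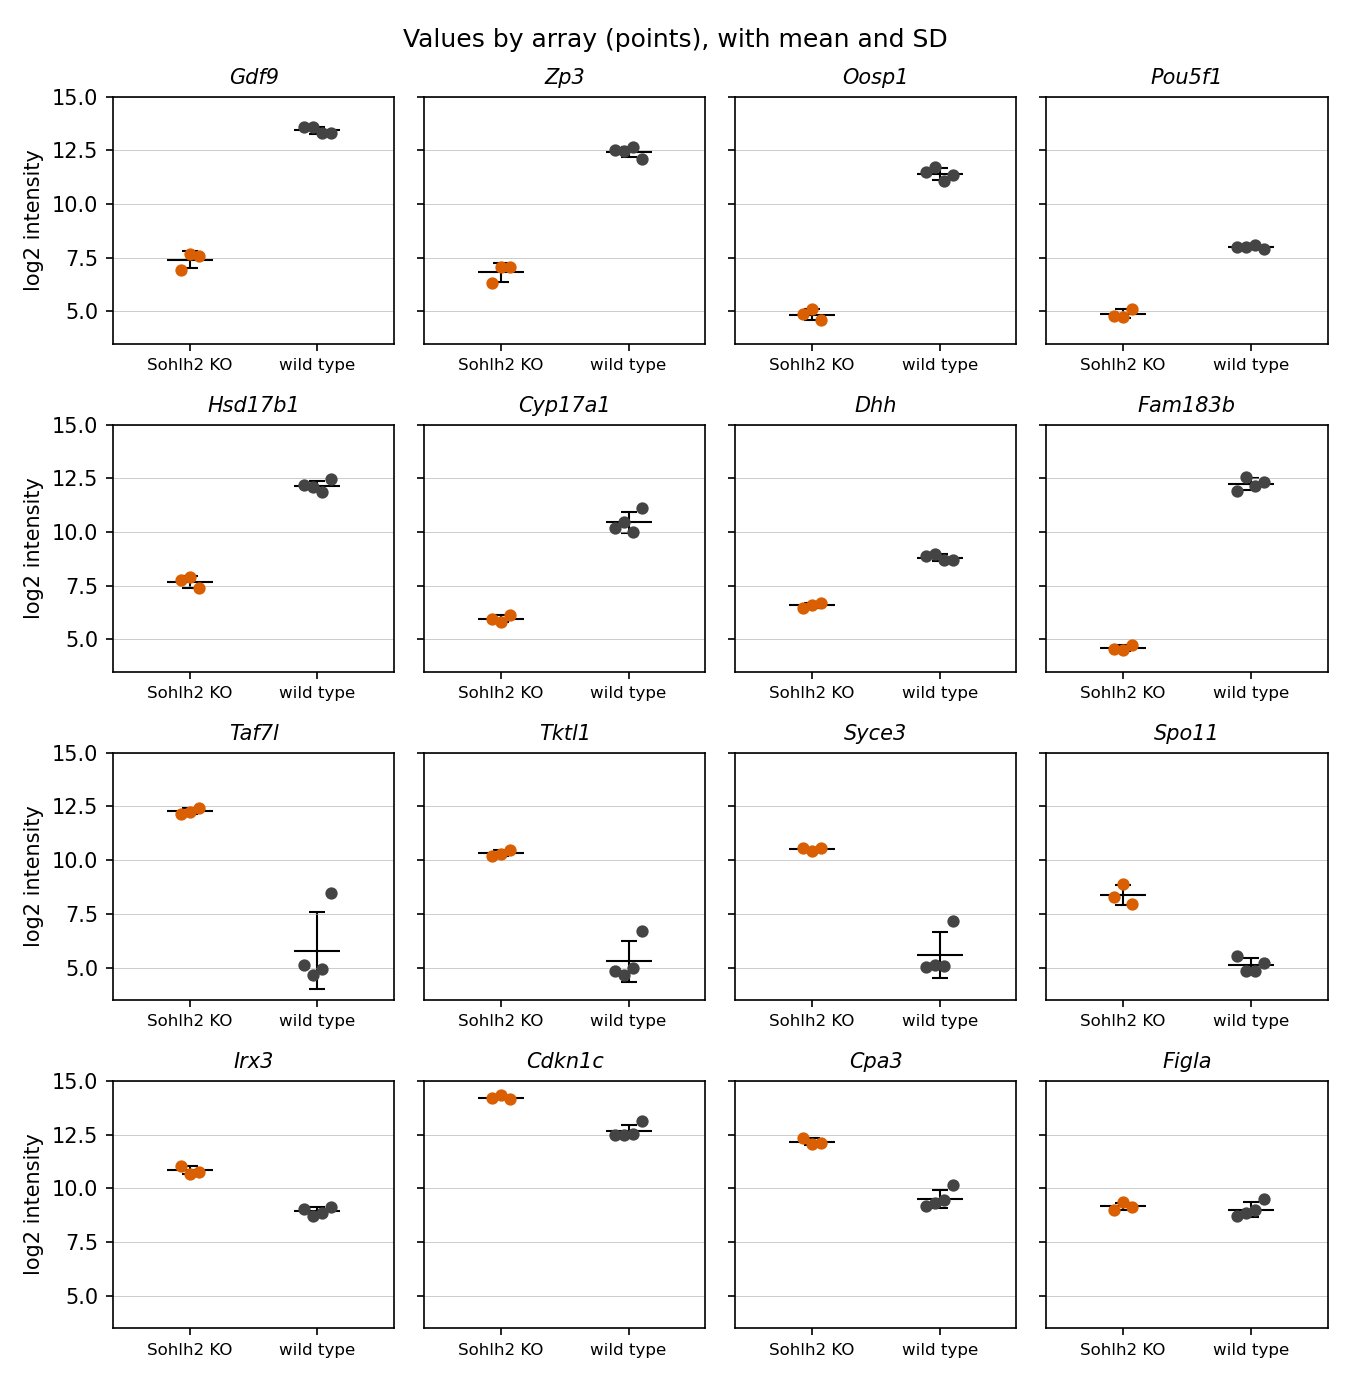
Normalized log2 intensity of 16 genes on each array (points; Sohlh2 KO in orange, wild type in grey), with the group mean and SD. Oocyte, follicle and cilia genes of the upper panels are lower on every Sohlh2 KO array, Taf7l through Cpa3 are higher on every one, wild type 4 lies above the other wild-type arrays for Taf7l, Tktl1 and Syce3, and the 2 groups overlap for Figla.

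Transcription regulators of the oocyte fell in part. Of 11 tested members 6 fell (5 with chip as a block), 0 rose and 5 did not pass. Obox5 and Obox1, oocyte homeobox genes, were at least 13.4-fold and at least 10.1-fold lower, and both were at or under background on all 3 Sohlh2 KO arrays. Tbpl2, the oocyte relative of the TATA-binding protein, was at least 2.68-fold lower. Lhx8 and Nobox, homeobox factors needed for the growth of early oocytes, were named after their values were seen. Lhx8 read 5.98, 5.99 and 6.36 in Sohlh2 KO, against 7.15, 8.06, 7.32 and 7.81 in wild type, a fall of 2.77-fold, and Nobox fell 1.76-fold, a call that the chip block did not keep (adjusted p = 0.263). Figla, the factor that starts zona gene expression, read 9, 9.34 and 9.14 in Sohlh2 KO, against 8.72, 8.83, 8.98 and 9.5 in wild type. Its groups overlapped and its difference did not pass (log2 difference 0.15, SE 0.19, adjusted p = 0.618). Foxo3, which holds primordial follicles at rest, lay at 7.08, 7 and 7.08 in Sohlh2 KO, against 7, 6.99, 7.04 and 7 in wild type and did not pass either. The Zp1, Zp2 and Zp3 falls thus stood beside a Figla level whose difference from wild type was not detectable with these arrays.

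Chromatin and maturation genes fell in part. H1f8, the linker histone of the oocyte, read 5.05, 5.68 and 5.72 in Sohlh2 KO, against 10.47, 10.50, 10.23 and 10.23 in wild type, and fell 29.3-fold. Dnmt3l, the cofactor of imprint methylation in oocytes, fell 4.54-fold. Dnmt1, the maintenance methyltransferase, fell 2.03-fold. Uhrf1, its partner at replicated DNA, fell 1.39-fold, a call that the chip block did not keep (adjusted p = 0.152) and not shared by a second probe (log2 difference 0.32). In all, 4 of 11 tested genes of this group fell and 0 rose. The de novo methyltransferase Dnmt3b (0.03) and the brightest probe of the histone demethylase Kdm1b (-0.23) did not pass, while 2 of 4 further Kdm1b probes passed in opposite directions (log2 differences 0.58 and -0.92). Among 12 genes of meiotic arrest and maturation 4 fell and 1 rose, with 3 and 1 in the chip block fit. Mos, the kinase that holds eggs in the second meiotic division, fell 19.9-fold, and Aurkc, a meiotic Aurora kinase, fell 5.23-fold. Ccnb3, an X-linked meiotic cyclin, was the one that rose. It read 8.19, 8.21 and 7.98 in Sohlh2 KO, against 6.45, 6.62, 6.67 and 6.8 in wild type, a rise of 2.82-fold.

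Pluripotency factors went both ways. Pou5f1, the transcription factor of pluripotent cells that growing oocytes also express, read 4.79, 4.73 and 5.12 in Sohlh2 KO, against 7.98, 8.01, 8.1 and 7.89 in wild type. It fell 8.66-fold (log2 difference -3.11, SE 0.14, adjusted p = 3.69e-09). Sall4, a zinc finger factor of germ cells, fell 13.8-fold and Dppa5a, an RNA-binding protein, 3.09-fold. Dppa4, a chromatin factor of pluripotent and early germ cells, moved the opposite way. It read 10.07, 10.07 and 10.29 in Sohlh2 KO, against 6.83, 6.6, 6.4 and 6.91 in wild type, and rose 11-fold (log2 difference 3.46, SE 0.17, adjusted p = 6.33e-09). Of the 11 tested factors 6 fell and 2 rose. The counts were 6 and 1 with chip as a block.

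Most tested genes of the synaptonemal complex, which joins chromosomes in meiotic prophase, rose. Of 8 such genes and genes of the chromosome axis 6 rose and 1 fell (median 1.54), and with chip as a block 7 rose and 0 fell. Syce3, a central element protein of the complex, read 10.55, 10.44 and 10.55 in Sohlh2 KO, against 5.01, 5.1, 5.06 and 7.17 in wild type. Wild type 4 stood above the other 3 wild-type arrays, and the groups did not overlap. Syce3 rose 30.4-fold (log2 difference 4.93, SE 0.42, adjusted p = 1.6e-06), and its log2 difference was 5.46 without wild type 4. Sycp2, a lateral element protein, read 7.55, 7.87 and 7.74 in Sohlh2 KO, against 5.55, 5.22, 5.35 and 5.2 in wild type, and rose 5.25-fold. Tex11, an X-linked meiotic protein, rose 2.39-fold. Syce2, a further central element protein, was the member that fell, by 1.57-fold, a call that the chip block did not keep (adjusted p = 0.515). It was named after its values were seen.

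Recombination and cohesion genes rose in part. Of 12 tested recombination genes 6 rose and 0 fell. Spo11, the enzyme that makes the meiotic DNA breaks, read 8.27, 8.89 and 7.97 in Sohlh2 KO, against 5.55, 4.85, 4.82 and 5.21 in wild type. It rose 9.65-fold (log2 difference 3.27, SE 0.3, adjusted p = 3.56e-06), and 2 of the 4 wild-type arrays were above background. A further Spo11 probe gave a much smaller rise (log2 difference 0.85, adjusted p = 0.00323). Spata22 and Meiob, partners in the repair of these breaks, rose 13.3-fold and 5.38-fold, and Zcwpw1, which reads histone marks at break sites, rose 3-fold. Psmc3ip, a strand exchange cofactor, was bright in both groups and did not pass (log2 difference -0.18). Of 12 genes of cohesin and telomere attachment 5 rose, and 4 with chip as a block. Stag3, the meiotic cohesin subunit, read 9.37, 9.49 and 9.34 in Sohlh2 KO, against 6.64, 6.51, 6.78 and 7.2 in wild type, and rose 6.14-fold. Smc1b, a further meiotic subunit, rose 2.08-fold, and Terb1, which tethers meiotic telomeres, rose 1.86-fold. Smc3, the subunit shared with mitotic cohesin, did not pass (log2 difference -0.17). Stag3, Smc1b and Terb1, named here among the rises, are meiosis-specific. The 7 that did not pass included the shared subunits Stag1, Stag2 and Smc3, but also members that are not shared cohesin subunits.

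Signals of meiotic entry rose in part. Of 13 tested genes 5 rose and 0 fell, and 3 rose with chip as a block. Rarb, a retinoic acid receptor and itself a retinoic acid target, read 8.49, 8.74 and 8.21 in Sohlh2 KO, against 7.17, 7.06, 7.03 and 7.34 in wild type, and rose 2.51-fold, while 1 of its 2 further probes did not pass (log2 difference 0.34). Aldh1a2, the enzyme that makes retinoic acid, rose 2.57-fold. Dazl, the RNA-binding protein that licenses germ cells for meiosis, read 10.86, 10.69 and 10.40 in Sohlh2 KO, against 9.12, 9.02, 8.99 and 9.42 in wild type, and rose 2.85-fold. Aldh1a1, a related enzyme, was bright in both groups and did not pass (log2 difference 0.17).

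Germ granule and piRNA genes rose in a minority. Of 19 tested genes 7 rose, 1 fell and 11 did not pass. In the chip block fit 7 rose and 0 fell. Gpat2 and Asz1, mitochondrial proteins of the piRNA pathway, rose 3.96-fold and 3.19-fold. Gpat2 read 10.92, 11.08 and 11.05 in Sohlh2 KO, against 9.18, 8.99, 8.65 and 9.31 in wild type. Tdrkh, a Tudor protein that binds PIWI proteins, rose 2.02-fold. Gtsf1, a PIWI cofactor, did not pass (log2 difference -0.59). Of 14 germ cell RNA-binding proteins 6 rose and 4 fell, but none of the falls was kept by the chip block, which gave 6 rises and 0 falls. Ddx25, an RNA helicase best known from spermatids, read 10.68, 10.53 and 10.62 in Sohlh2 KO, against 8.36, 8.72, 8.54 and 8.99 in wild type, and rose 3.88-fold. Dnd1, a germ cell RNA-binding protein, rose 2.41-fold. Ybx2, a store-keeper of maternal mRNA, did not pass (log2 difference -0.06). In whole ovaries, fewer cells of a type and less RNA per cell cannot be told apart, and this holds for every group above and below.

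The largest rises of all belonged to genes best known from the testis, many of them on the X chromosome. Taf7l, an X-linked germ cell relative of a general transcription factor subunit, read 12.14, 12.26 and 12.44 in Sohlh2 KO, against 5.11, 4.66, 4.93 and 8.48 in wild type. The Sohlh2 KO arrays lay close together, while wild type 4 was over 3 units above the other wild-type arrays. The groups did not overlap. Taf7l rose 89.6-fold (log2 difference 6.49, SE 0.69, adjusted p = 1.29e-05), and its log2 difference was 7.38 without wild type 4. Gm773 read 10.39, 10.40 and 10.30 in Sohlh2 KO, against 5.12, 4.78, 4.71 and 5.29 in wild type, and rose 41.9-fold. Tktl1, a transketolase relative, read 10.21, 10.29 and 10.49 in Sohlh2 KO, against 4.82, 4.64, 5 and 6.7 in wild type. It rose 32.9-fold, with a log2 difference of 5.51 without wild type 4. Rhox13, a reproductive homeobox gene, rose 32-fold. Of the 4 wild-type arrays, 2 were above background for Taf7l, Gm773 and Tktl1 and 1 for Rhox13, so these folds depend on the floor. Outside the X chromosome, Cabs1, a calcium-binding protein of spermatids, rose 29.1-fold, and Dmrtc2, a DM-domain factor of male meiosis, was at least 12-fold higher, its probe being above background on 0 of 4 wild-type arrays.

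X-linked genes were a larger share of the large rises than of the small ones. The X chromosome held 3.43% of the tested genes with a chromosome, 6.17% of those called higher and 28.1% of those higher by 4-fold or more, which is 25 of 89. It held 2.43% of the genes called lower and 0.687% of those lower by 4-fold or more, which is 2 of 291. Of 457 tested X-linked genes 103 were higher (22.5%) and 42 were lower (9.19%), and their median log2 difference of 0.17 was the highest of any chromosome. With chip as a block 11.1% of the genes called higher were X-linked, and all 25 of the large rises were called again. Of these, Rhox9, Magea5, Magea8, Dcaf8l, Nxf2 and H2bfm were above background on 0 of 4 wild-type arrays. Rhox13, Magea2, Gm364 and Usp26 were above it on 1, and Taf7l, Gm773 and Tktl1 on 2. All of these genes needed knockout arrays to pass the filter of 3 arrays, so the share of large rises is partly set by the filter. Genes are not independent replicates, and no test was made of this share.

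**Figure D4:**
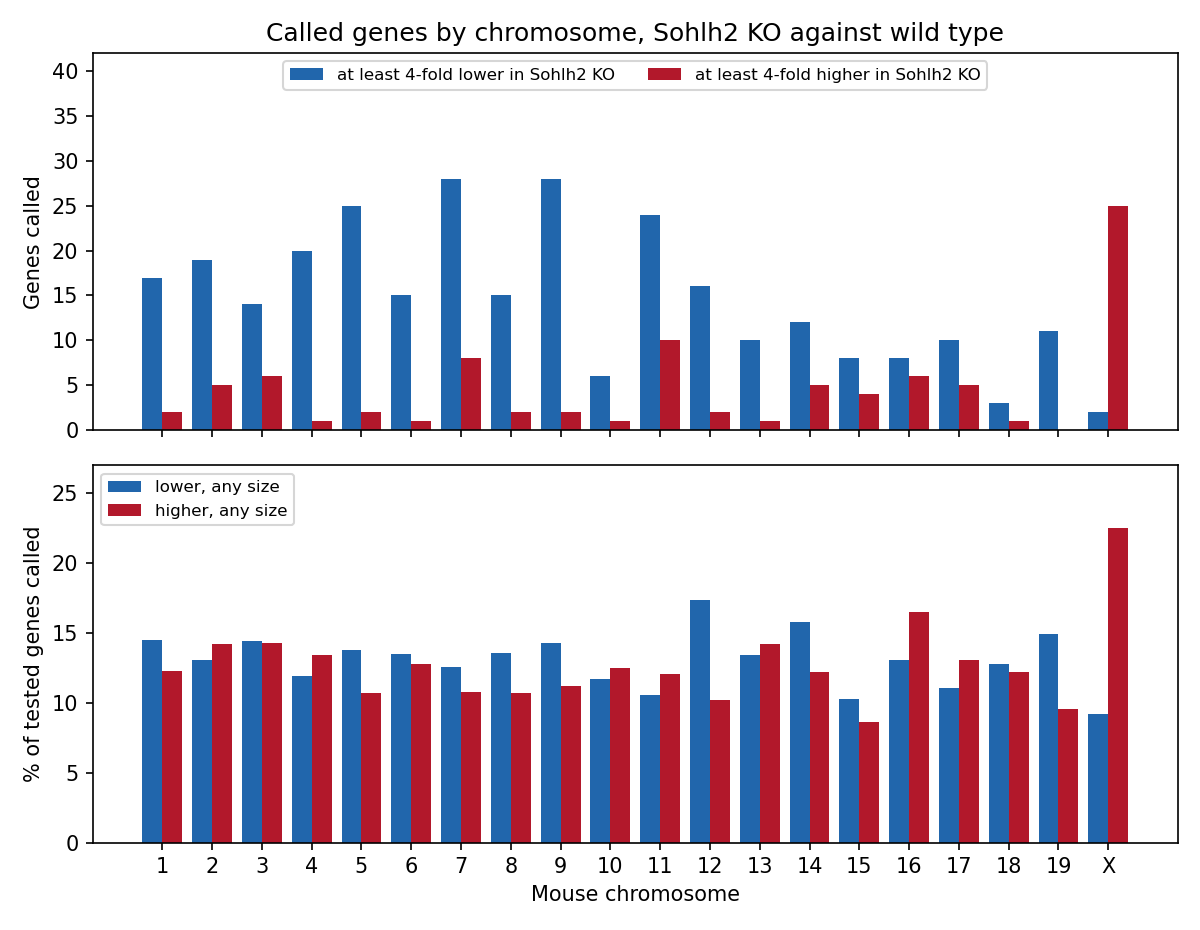
Called genes per mouse chromosome in Sohlh2 KO against wild type. The upper panel counts those that changed 4-fold or more and the lower panel gives the share of tested genes called at any size, and the X chromosome has 25 large rises against 2 large falls.

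The 25 X-linked genes with large rises were named by their size after values were seen, and some of them belonged to gene families. Besides Taf7l, Gm773, Tktl1 and Rhox13 they included Rhox5 and Rhox9, of the same homeobox cluster as Rhox13, and the Mage genes Magea2, Magea5, Magea8 and Mageb4, whose relatives in humans are known as cancer-testis antigens. Rhox5 read 9.39, 9.42 and 9.39 in Sohlh2 KO, against 5.86, 5.34, 5.78 and 6.3 in wild type, and rose 11.9-fold. Magea2 was near background in all wild-type arrays, at 8.6, 8.33 and 8.32 in Sohlh2 KO, against 4.84, 4.92, 5 and 4.67 in wild type. The remaining members were Dmrtc1c1, 1700080O16Rik, Tex16, Fmr1nb, Gm364, Gm5128, Tex13b, Dcaf8l, 8030474K03Rik, Xlr5a, Alas2, Nxf2, Xpnpep2, Usp26 and H2bfm. Alas2, the first enzyme of heme synthesis in red cells, is of a different kind from the germ cell genes of this group. The 2 X-linked genes with falls of that size were Bmp15 and Akap14, an anchoring protein of cilia.

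Nearly all tested granulosa cell genes of growing follicles fell. Of 16 tested genes 14 fell and 0 rose (median -2.1), 13 of them with chip as a block. Hsd17b1, which converts estrone to estradiol, read 7.77, 7.89 and 7.38 in Sohlh2 KO, against 12.20, 12.10, 11.86 and 12.45 in wild type. It fell 22.2-fold (log2 difference -4.47, SE 0.23, adjusted p = 9.09e-09). Inha, a subunit of inhibin, read 8.25, 8.41 and 8.69 in Sohlh2 KO, against 11.62, 11.71, 11.70 and 12.05 in wild type, and fell 9.97-fold. Fshr, the receptor for follicle-stimulating hormone, fell 14.4-fold, with 1 of 3 Sohlh2 KO arrays above background. Amh, the hormone of growing follicles, was at least 2.67-fold lower. Amhr2, its receptor, which many somatic cells of the ovary express, read 11.74, 11.62 and 11.95 in Sohlh2 KO, against 11.55, 11.63, 11.64 and 11.50 in wild type. Its groups overlapped and it did not pass (log2 difference 0.19), while 1 of 2 further Amhr2 probes passed as higher (log2 difference 0.60, adjusted p = 0.0113).

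Some regulators of pregranulosa cells rose. Of 16 tested genes 7 rose and 1 fell, and with chip as a block 5 rose and 2 fell. Irx3 and Irx5, homeobox factors of pregranulosa cells, rose 3.73-fold and 3.3-fold. Irx3 read 11.04, 10.68 and 10.77 in Sohlh2 KO, against 9.02, 8.71, 8.85 and 9.14 in wild type. Lgr5, the R-spondin receptor that marks the pregranulosa cells of the ovarian surface lineage, read 8.57, 8.9 and 8.59 in Sohlh2 KO, against 6.98, 7.13, 7.17 and 7.11 in wild type, and rose 3-fold (log2 difference 1.59, SE 0.13, adjusted p = 1.39e-06). Lhx9, a factor of the gonadal ridge, rose 2.48-fold. Gata6, needed in somatic cells of the gonad, did not pass (log2 difference 0.26). Foxl2, the regulator of granulosa identity, was faint at 5.47, 5.78 and 5.65 in Sohlh2 KO, against 5.25, 5.27, 5.5 and 5.71 in wild type. Its difference of 0.2 did not pass, while with chip as a block it was 1.39 (adjusted p = 0.0242), since the Sohlh1 KO arrays differed by -1.19 between chips. Foxl2 was named after its values were seen, as was Foxo1, the member that fell, by 1.8-fold.

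Genes of steroid synthesis and of the hedgehog signal from follicle to stroma fell in part. Cyp17a1, the enzyme of androgen synthesis in theca cells, read 5.95, 5.82 and 6.14 in Sohlh2 KO, against 10.21, 10.49, 10 and 11.10 in wild type. It fell 22.3-fold (log2 difference -4.48, SE 0.37, adjusted p = 1.33e-06). Hsd3b1, a step shared by all steroid hormones, fell 7.01-fold, Insl3, a hormone of theca cells, 10.1-fold and Cyp11a1, the first enzyme of the pathway, 3.55-fold. A second, dimmer probe of Cyp11a1 did not follow (log2 difference 0.40, adjusted p = 0.374). These were the 4 of 8 tested theca and steroid genes that fell, and Nr5a1, the factor that drives them, did not pass (log2 difference -0.36). Dhh and Ihh, the hedgehog ligands of granulosa cells, fell 4.62-fold and 3.74-fold. Dhh read 6.48, 6.59 and 6.72 in Sohlh2 KO, against 8.9, 8.97, 8.68 and 8.68 in wild type. Ptch1 and Hhip, which hedgehog signalling induces in the receiving cells, fell 2.55-fold and 3.21-fold. Of 10 tested genes these 4 fell, Gli3 and Cdon rose 1.56-fold and 1.7-fold (both named after their values were seen; the Gli3 call was not kept by the chip block, adjusted p = 0.721), and Gli2, a transcription factor of the pathway, did not pass. The brightest probe of Smo, its signal transducer, did not pass either (log2 difference 0.12), but its 2 further probes passed as higher (0.74 and 0.80). Cholesterol synthesis, which supplies the precursor, had 2 falls and 2 rises among 15 tested genes, and 2 falls and 0 rises in the chip block fit. The falls and rises were 13.3% each, near the 13% and 12.5% over all tested genes.

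**Figure D5:**
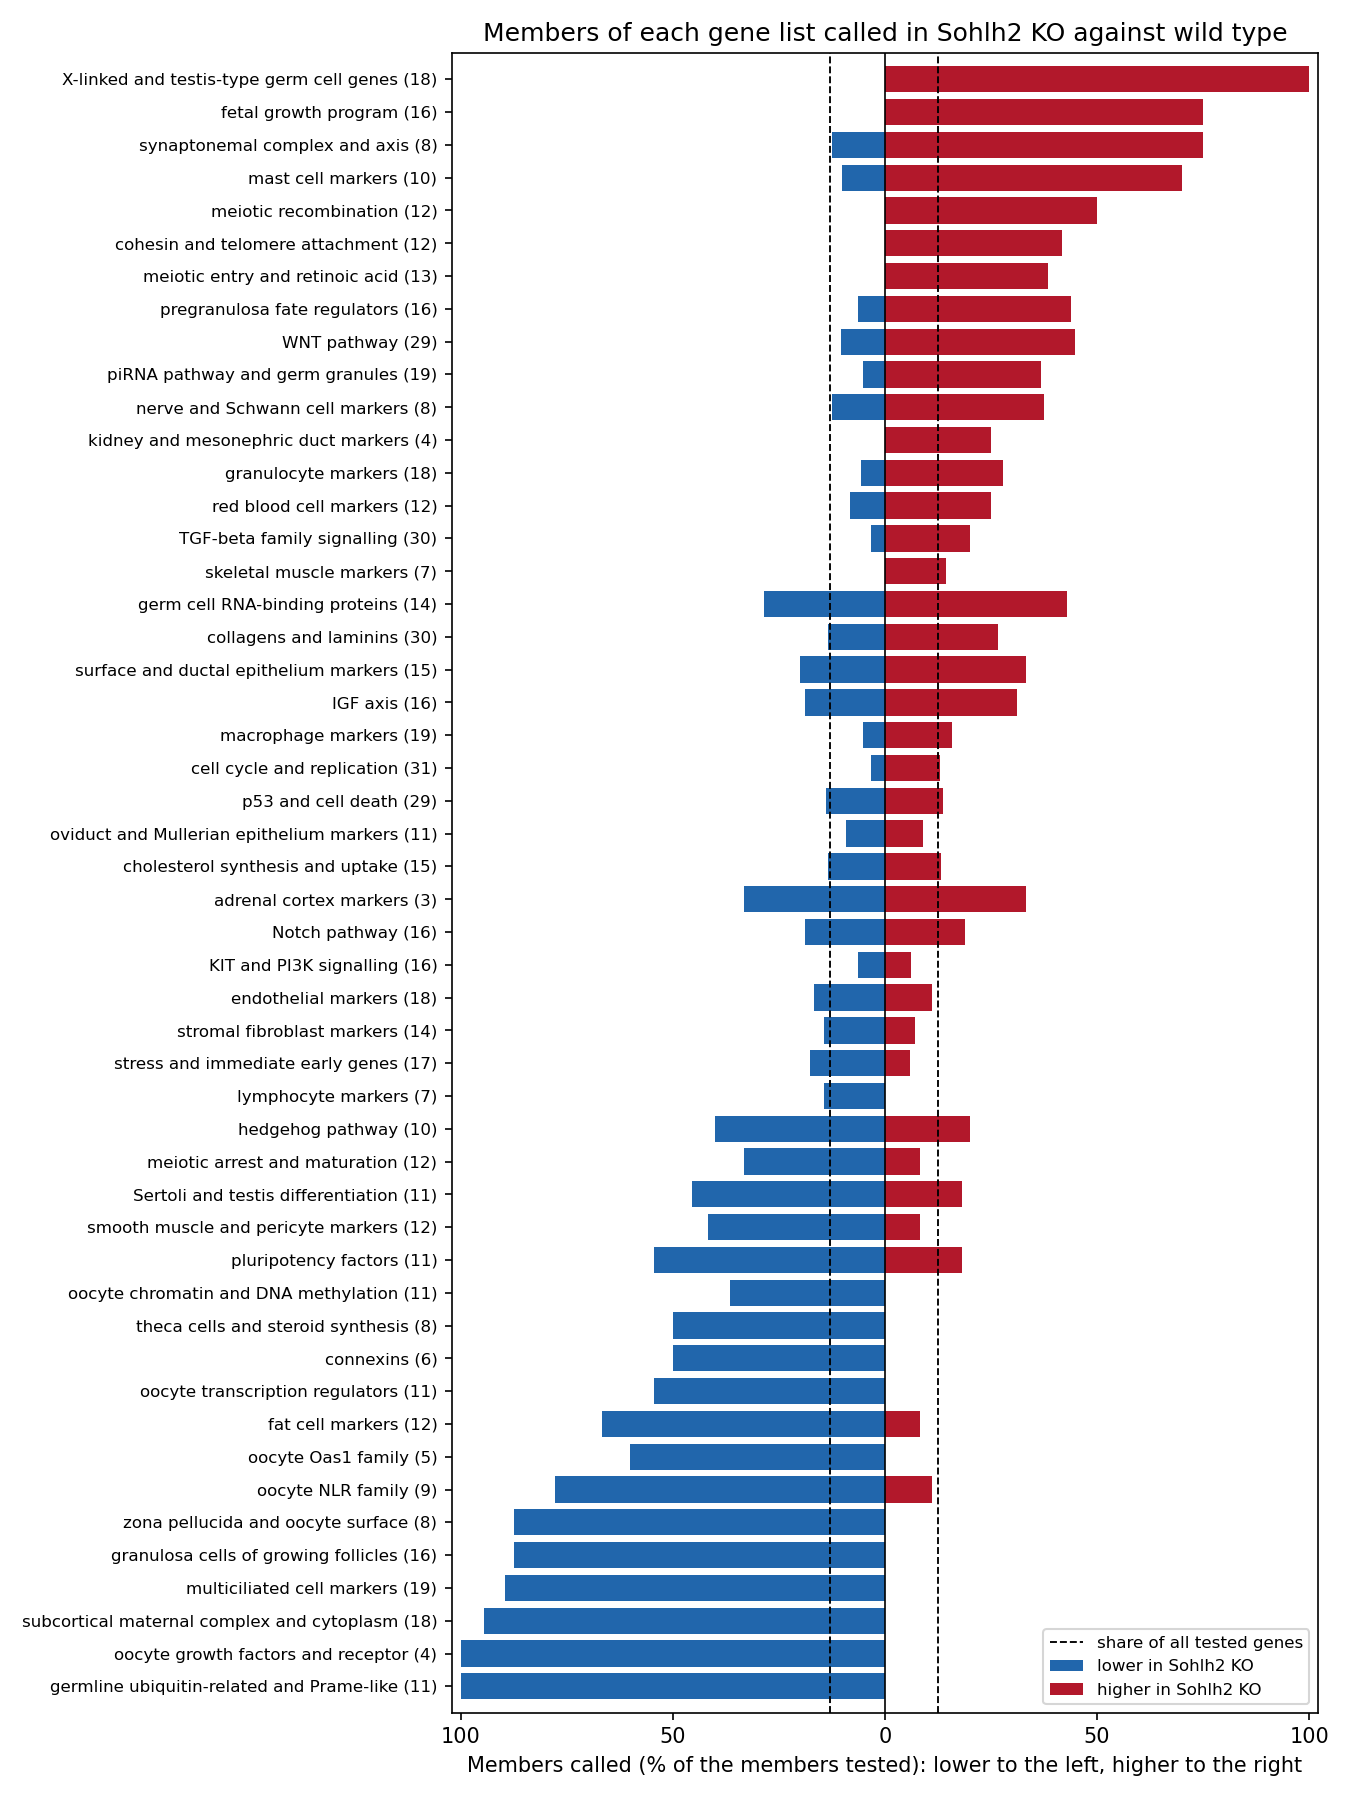
Members of each gene list called lower (blue, to the left) and higher (red, to the right) in Sohlh2 KO, as a percentage of the members tested, whose number follows each name. Dashed lines mark the shares over all tested genes (13% lower and 12.5% higher), and the oocyte and granulosa lists lie far to the left of them while the testis-type, fetal growth and synaptonemal lists lie far to the right. Lists were chosen with earlier results of these data known, which partly sets these shares.

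Other signalling pathways had mixed or weak changes. In the WNT pathway 13 of 29 tested genes rose and 3 fell, but 3 rose and 2 fell with chip as a block, and 6 rose and 2 fell without wild type 2 and 3. Rspo2, an R-spondin of oocytes that enhances WNT signals, read 5.69, 5.86 and 5.98 in Sohlh2 KO, against 8.36, 8.37, 8.05 and 8.23 in wild type. It fell 5.31-fold, against 2.75-fold with chip as a block. Rspo1, the R-spondin of somatic ovarian cells, went the other way and rose 1.89-fold, a call that the chip block did not keep (adjusted p = 0.083). Dkk3, of a family of WNT antagonists, fell 1.75-fold. In the TGF-beta family 6 of 30 tested genes rose and 1 fell, with 2 and 2 when chip was a block. Bmpr1b, a receptor that granulosa cells use for oocyte signals, read 8.53, 8.35 and 8.75 in Sohlh2 KO, against 9.95, 9.73, 9.61 and 9.72 in wild type, and fell 2.31-fold. Id1, a target of bone morphogenetic proteins, rose 1.7-fold.

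Among 16 Notch pathway genes 3 fell and 3 rose, with 2 and 3 in the chip block fit. Jag1, the Notch ligand of oocytes, read 6.46, 6.82 and 6.59 in Sohlh2 KO, against 8.34, 8.13, 7.81 and 7.75 in wild type, and fell 2.61-fold. Hey2, a Notch target, fell 3.74-fold, while Jag2, a second ligand, rose 2.03-fold. Of 6 connexins 3 fell and 0 rose. Gja4, the connexin of the oocyte's junctions with granulosa cells, read 9.03, 9.26 and 9.08 in Sohlh2 KO, against 10.11, 10.32, 10.62 and 10.07 in wild type, and fell 2.23-fold, and Gja1, that of granulosa cells, fell 2.29-fold.

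A group of imprinted and fetal growth genes rose. Of 16 tested genes 12 rose and 0 fell (median 0.84), 8 of them with chip as a block. Cdkn1c, an imprinted inhibitor of cell division, read 14.20, 14.32 and 14.15 in Sohlh2 KO, against 12.49, 12.50, 12.52 and 13.11 in wild type. It rose 2.97-fold (log2 difference 1.57, SE 0.21, adjusted p = 1.23e-04). Peg3, a paternally expressed zinc finger gene, rose 2.9-fold, and of its 2 further probes 1 passed (log2 difference 2.04) and 1 did not (0.80). Igf2, the fetal growth factor, was among the brightest genes on the arrays. It read 14.82, 14.88 and 14.91 in Sohlh2 KO, against 13.73, 13.76, 14.05 and 14.29 in wild type, and rose 1.88-fold. Igf2bp1 and Igf2bp3, fetal RNA-binding proteins that bind Igf2 mRNA, rose 4.11-fold and 3.1-fold. For Igf2bp3, 2 of 4 further probes did not pass. Ndn, an imprinted gene, did not pass (log2 difference 0.29). The wider IGF axis had 5 rises and 3 falls among 16 tested genes (3 and 2 with chip as a block), with Igfbp2, a carrier protein of IGFs, up 2.02-fold and Igf1 not passing (log2 difference 0.04).

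Some extracellular matrix genes rose, and their falls lay near the share over all genes. Division and death genes were called about as often as all genes, or less. Several of the matrix, division and death calls were not kept by the chip block. Of 30 tested collagens, laminins and related genes 8 rose (26.7%) and 4 fell (13.3%), with 5 and 3 in the chip block fit. The falls included Col4a4 and Col4a3, basement membrane chains encoded side by side on chromosome 1, which fell 8.64-fold and 3.18-fold. Col4a4 read 5.62, 6.08 and 5.72 in Sohlh2 KO, against 9.49, 8.82, 8.91 and 8.45 in wild type. Lamc3, a laminin chain, fell 4.37-fold. Of 31 genes of the cell cycle 4 rose (12.9%) and 1 fell (3.23%). Of 29 genes of the p53 pathway and cell death 4 rose and 4 fell (13.8% each). Over all tested genes 12.5% rose and 13% fell, so the p53 and death counts, the cell cycle rises and the matrix falls lay near those shares. In the chip block fit 1 cell cycle genes rose and 2 fell, and their median log2 difference was -0.05, against 0.18 without the block. Of the p53 and death genes 2 rose and 3 fell in that fit. Aurka, a kinase of mitosis and of meiotic maturation, was the cell cycle gene that fell, by 1.78-fold. Bmf, a death-promoting BCL2 relative, rose 1.81-fold, and Bok, another, fell 1.79-fold, though a second Bok probe did not pass (log2 difference -0.03). Of 17 stress and immediate early genes, which report on tissue handling, 3 fell and 1 rose (1 and 0 with chip as a block), and their summed level on the linear scale was 16489 to 19909 in Sohlh2 KO, against 16372 to 19416 in wild type.

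Markers of tissues that adjoin the ovary moved with genotype too. Fam183b, known from motile cilia, had the largest fall of any gene and read 4.57, 4.5 and 4.76 in Sohlh2 KO, against 11.89, 12.56, 12.15 and 12.31 in wild type. It was at least 136-fold lower, with 0 of 3 Sohlh2 KO arrays above background. Of 19 tested markers of multiciliated cells 17 fell and 0 rose, and 14 fell in the chip block fit and also without wild type 2 and 3. The median log2 difference was -2.64, and -2.42 when genes off in Sohlh2 KO were set to their bound. Sec14l3 was at least 32-fold lower, and Ccno, which drives the multiplication of centrioles in these cells, fell 25.4-fold. Ccno read 7.42, 7.43 and 7.27 in Sohlh2 KO, against 11.98, 12.10, 12.23 and 11.86 in wild type. The summed level of the list was 1701.5 to 2016.2 in Sohlh2 KO, against 20591 to 27075 in wild type, and 13 of the 19 were above background on at least 1 Sohlh2 KO array. Ccno is also known from mouse oocytes, which the list does not separate.

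Markers of the oviduct lining did not fall as a group. Of 11 tested 1 fell, 1 rose and 9 did not pass, and with chip as a block 1 fell and 0 rose. The one that fell was Ovgp1, the oviduct glycoprotein, which read 9.95, 9.75 and 9.97 in Sohlh2 KO, against 13.51, 13.54, 13.01 and 13.03 in wild type, a fall of 10.4-fold. Pax8, a transcription factor of the oviduct lining, did not pass at 7.7, 7.51 and 7.72 in Sohlh2 KO, against 8.19, 8.08, 7.9 and 7.63 in wild type. Surface and ductal epithelium gave 5 rises and 3 falls among 15 genes (2 and 2 in the chip block fit), with Krt14, a keratin of basal cells, up 5.21-fold (adjusted p = 0.0872 with chip as a block) and Cdh1, the epithelial cadherin that oocytes also carry, down 2.14-fold. A second Cdh1 probe did not pass (log2 difference -0.39, adjusted p = 0.0739).

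Most fat cell markers and some smooth muscle markers fell. Of 12 tested fat cell markers 8 fell and 1 rose, with 7 and 0 in the chip block fit. Adipoq, the fat cell hormone adiponectin, read 5.11, 4.9 and 5.03 in Sohlh2 KO, against 10.46, 10.56, 11.05 and 10 in wild type. It was at least 41.5-fold lower, and Car3, a carbonic anhydrase of fat and muscle, was at least 31.2-fold lower, both with 0 of 3 Sohlh2 KO arrays above background. The member that rose, named after its values were seen, was Ucp1 of brown fat, which was faint (1.96-fold) and whose call the chip block did not keep (adjusted p = 0.0527). The summed level of the fat list was 4841.4 to 5400 in Sohlh2 KO, against 8573.2 to 13281 in wild type. Of 12 smooth muscle and pericyte markers 5 fell, 1 rose and 6 did not pass, and 4 fell with chip as a block. Actg2, the actin of visceral smooth muscle, read 9.14, 9.57 and 9.46 in Sohlh2 KO, against 12.25, 12.50, 12.49 and 12.16 in wild type, and fell 7.79-fold. Myh11, its myosin, fell 4.94-fold, while the brightest probe of Acta2, the actin of vessels and of ovarian stroma, did not pass (log2 difference -0.41), though it did with chip as a block (-0.79, adjusted p = 0.0201). The other 4 probes of Acta2 did pass, with log2 differences of -0.92 to -1.35. The part of oviduct, fat pad or muscle tissue in the samples was not tested, and these falls moved with genotype and chip alike.

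Most mast cell genes rose. Of 10 tested markers 7 rose and 1 fell (median 2.35), with 6 and 1 when chip was a block. Cpa3, the mast cell carboxypeptidase, read 12.36, 12.05 and 12.12 in Sohlh2 KO, against 9.16, 9.31, 9.45 and 10.13 in wild type. It rose 6.35-fold (log2 difference 2.67, SE 0.23, adjusted p = 1.42e-06). Cma1 and Mcpt4, mast cell chymases, rose 6.93-fold and 5.86-fold, and Mrgprb2, the mast cell receptor for basic secretagogues, rose 4.42-fold. The other 3 that rose, Tpsb2, Tpsab1 and Gata2, and Hdc were named after their values were seen. The tryptases Tpsb2 and Tpsab1 rose 7.36-fold and 7.96-fold, and Gata2, a factor of mast cells and vessels, 1.51-fold. The chip block did not keep the Gata2 call (adjusted p = 0.133), though the log2 difference there was no smaller, at 0.74. Hdc, the histamine-forming enzyme, moved the opposite way. It read 12.02, 11.44 and 11.92 in Sohlh2 KO, against 13.78, 14.04, 13.52 and 13.57 in wild type, and fell 3.82-fold (log2 difference -1.93, SE 0.22, adjusted p = 1.95e-05). The high-affinity IgE receptor genes Fcer1a and Ms4a2, which define the cell type, lay near background and did not pass. Hdc was the brightest member in wild type, and the summed level of the list overlapped between the groups, at 16268 to 23458 in Sohlh2 KO and 15849 to 19999 in wild type.

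Calls of granulocyte genes depended on the arrays and the fit. Of 18 tested markers 5 rose and 1 fell, but 0 rose and 2 fell with chip as a block, and 1 rose without wild type 2 and 3. Stfa1, a neutrophil stefin, read 9.28, 8.94 and 11.48 in Sohlh2 KO, against 7.03, 7.28, 6.27 and 7 in wild type. S100a9, a calcium-binding protein of neutrophils, read 8.14, 7.69 and 10.66 in Sohlh2 KO, against 6.96, 6.2, 5.21 and 6.49 in wild type. Both were 2 to 3 units higher on Sohlh2 KO 4 than on the other Sohlh2 KO arrays. Without that array the Stfa1 log2 difference was 2.21, against 3 with it. The S100a9 call was lost without that array (1.7, adjusted p = 0.109) and also without wild type 3 (2.28, adjusted p = 0.0615). The chip block kept neither the Stfa1 call (2.96, adjusted p = 0.121) nor the S100a9 call (1.93, adjusted p = 0.38). The summed level of the list was 2890.6 to 15470 in Sohlh2 KO, against 2410.2 to 3165.2 in wild type. Of 12 red cell markers 3 rose and 1 fell, with 2 and 0 in the chip block fit. This list differed between chips within Sohlh1 KO, by a median of 1.62 (log2, chip 2 minus chip 1), and its median difference between Sohlh2 KO and wild type was -1.11 with chip as a block, against 0.04 without. Hba-a1, an alpha globin whose probe may also bind its close copy, read 14.51, 15 and 14.92 in Sohlh2 KO, against 12.61, 13.14, 13.06 and 13.39 in wild type, and rose 3.39-fold. Their summed level was 25377 to 34804 in Sohlh2 KO, against 7354.6 to 11932 in wild type, and the part of blood content in other results was not tested.

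Counts of the remaining cell type lists were small or shrank in the chip block fit. Of 19 macrophage markers 3 rose and 1 fell, of 18 endothelial markers 2 rose and 3 fell, and of 14 stromal fibroblast markers 1 rose and 2 fell. In the chip block fit 0 macrophage markers rose and 1 fell, 1 endothelial markers rose and 3 fell, and 3 stromal markers rose and 1 fell. Pecam1, an endothelial adhesion molecule that germ cells share, rose 1.75-fold, though 2 further probes did not pass, while Plvap, a protein of vessel pores, fell 1.87-fold. Dcn, the main stromal proteoglycan, read 14.19, 14.18 and 14.15 in Sohlh2 KO, against 14.26, 14.30, 14.40 and 14.30 in wild type and did not pass. Stmn2, a nerve cell protein, rose 6.73-fold among 8 nerve and Schwann cell markers, of which 3 rose and 1 fell (2 and 0 with chip as a block). Myh8, the perinatal skeletal muscle myosin, was the only one of 7 skeletal muscle markers to pass. It read 7.45, 7.88 and 10.28 in Sohlh2 KO, against 5.86, 5.84, 6.06 and 6.45 in wild type, with Sohlh2 KO 4 far above the other Sohlh2 KO arrays, and its log2 difference of 2.49 was 1.62 without that array. Its 2 further probes did not pass, nor did it with chip as a block (adjusted p = 0.0987). Of 7 lymphocyte markers 1 fell, of 3 adrenal markers 1 fell and 1 rose, and of 4 kidney markers 1 rose (0 with chip as a block). Of 11 genes of Sertoli cells and testis differentiation 5 fell and 2 rose, but 2 fell and 0 rose in the chip block fit. Their defining factor Sox9 read 9.75, 9.85 and 9.66 in Sohlh2 KO, against 9.37, 9.46, 9.43 and 9.23 in wild type and did not pass (adjusted p = 0.0667).

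In comparison with Sohlh1 KO, the Sohlh2 KO ovaries differed at 5 of 13350 genes, 4 lower (0.03%) and 1 higher (0.00749%). Of these, 3 are genes of granulocytes and their precursors. Mpo, the neutrophil peroxidase, read 4.52, 4.55 and 4.59 in Sohlh2 KO, against 10.37, 9.12, 12.21 and 12.37 in Sohlh1 KO. The log2 difference was -6.46 (SE 0.6, adjusted p = 0.0011). Ctsg, a granule protease, read 4.76, 5.89 and 5.36 in Sohlh2 KO, against 8.59, 7.72, 9.88 and 10.49 in Sohlh1 KO, a log2 difference of -3.83 (adjusted p = 0.0205). Srgn, the granule proteoglycan serglycin, differed by -1.25 (adjusted p = 0.0154). Against wild type Srgn was called lower (-0.65), a call that the chip block did not keep (-0.54, adjusted p = 0.211). For Mpo, both Sohlh1 KO chips lay far above Sohlh2 KO, and the wild-type arrays read 5.92, 6.34, 6.57 and 6.54. The Mpo probe was above background on 0 of 3 Sohlh2 KO arrays, so the size of its difference depends on the floor. Further probes were compared with wild type only, where those of Mpo, Srgn and Unc13d did not pass, so they do not check the difference between the knockouts. Unc13d, which primes the release of granules, was lower by 1.83-fold in Sohlh2 KO than in Sohlh1 KO (adjusted p = 0.021). Efcab11, an EF-hand protein, was higher by 1.81-fold than in Sohlh1 KO (adjusted p = 0.0421). Against wild type, Efcab11 was called lower in Sohlh2 KO (log2 difference -0.75). A further Efcab11 probe did not pass against wild type (-0.44, adjusted p = 0.193), while another passed as lower (-0.82, adjusted p = 0.00821). No oocyte, meiosis or granulosa gene of the lists passed this comparison. Restricted to the 5 arrays of chip 2, it gave 18 lower and 3 higher genes. With 3 and 4 arrays, a difference between the knockouts that did not pass is not shown to be absent.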

How the data were processed

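RNA from 11 newborn ovary samples was measured on Illumina MouseWG-6 v2 BeadChips. The deposited intensities carry no detection p-values, and their sorted values were nearly equal on every array, so the authors' values were already quantile normalized. BeadStudio 3.2 is named per the submitters' processing notes. The deposited log2 values are the log2 of the same intensities and served as an alternative.

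Intensities were background-corrected (limma 3.58.1, normexp with 1276 olfactory receptor probes as negative controls, offset 16), quantile normalized and log2 transformed in R 4.3.3. A probe was above background when it exceeded the 95th percentile of those control probes (intensity 149.3 to 158.9) and was kept when this held on at least 3 arrays, and the brightest kept probe stood for its gene. Of 45281 probes, 34885 had 1 symbol, 18 several and 10378 none, and 24451 were kept. Of the 13350 genes, 5169 had several kept probes.

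Means of the 3 genotypes were fitted on all 11 arrays (limma, 8 residual degrees of freedom), with Benjamini-Hochberg adjustment over all genes and a threshold of 0.05. SE is limma's moderated value. The number of arrays, 3 and 4, limits the precision. A fold against a group with no array above background is a lower bound, the bright group's mean against the higher of the background level and the dim probe's own signal.

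Genes were named by a rule, which took both targeted genes, the top 15 in each direction among called genes without overlap, and up to 10 genes that differed between the knockouts. From every list it took the 4 best-ranked by adjusted p and the 3 brightest that did not pass. Cd9, Zp2 and Oosp3 are outside this rule, and they and the other exceptions marked in the text were chosen after their values were seen. Gene lists and members were chosen with earlier results of these data known. The fit was tested on simulated data. Alternatives covered background, normalization, filter, probe summary, array weights, chip, replicate number and left-out arrays, and leaving out wild type 2 and 3 for the gene lists was added after seeing the data.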

Additional observations from a re-analysis of the deposited data

Results flagged for a closer look

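Among the genes named here, 191 were examined for a wild-type array that stood apart from the other 3, and 10 had one. That count is close to the rate of about 1 in 20 that chance gives. Wild type 4 stood apart at log2 levels of 8.48 for Taf7l, 7.17 for Syce3, 8.84 for Mageb4, 5.21 for Gm364, 13.11 for Cdkn1c, 10.79 for Peg3 and 11.8 for Oas1d. Wild type 1 stood apart at 6.72 for Alas2, 10.12 for Gtsf1 and 10.12 for Smc3. Whether these arrays differ in stage or in tissue content was not tested.

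The Sohlh2 KO and Sohlh1 KO effects differed for 5 genes by limma's test of the difference, by -6.46 for Mpo, -1.25 for Srgn, -3.83 for Ctsg, -0.87 for Unc13d and 0.85 for Efcab11 (log2, Sohlh2 KO minus Sohlh1 KO). All 3 Sohlh2 KO arrays lay below all 4 Sohlh1 KO arrays for the first 4 genes, and above them for Efcab11.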

How the results depend on the processing

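Against wild type, the counts stayed within 1.5 times of 1671 higher and 1732 lower genes under the background, normalization, filter and probe alternatives and with chip as a random block. Array weights gave 2832 higher. A fixed chip block gave 676 higher and 1036 lower, without wild type 2 and 3 they were 768 and 1100, and at 2-fold or more 392 and 821. Leaving out 1 array gave 1084 to 1406 higher and 1353 to 1576 lower, with the 1084 reached without Sohlh2 KO 2. Against Sohlh1 KO, the 1 higher and 4 lower genes became 0 and 1 without background correction, 5 and 21 with chip as a block and 3 and 18 on chip 2 alone. The replicate block, on the number in the titles, gave 1508 higher and 1652 lower against wild type, and 4 higher and 3 lower against Sohlh1 KO. Same-numbered arrays did not deviate together (correlations of 0.03, -0.04 and -0.04). With so few pairs, this cannot show whether they share more than a number.

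Of all 3403 called genes, 19 turned sign with a fixed chip block and 12 with the mean of the kept probes. Among the genes named here, the log2 differences that turned sign were of genes that had not passed against wild type, and the cause was not tested. After cyclic loess they were -0.0473 for Dnmt3b, -0.0637 for Foxo3, -0.0256 for Igf1, -0.0285 for Stag1, -0.0151 for Stag2. With the mean of the kept probes they were 0.0436 for Dcn, 0.202 for Izumo1r, 0.0146 for Nr5a1, 0.099 for Spin1, -0.0842 for Stag1, -0.117 for Stag2. With the replicate block they were -0.0496 for Dnmt3b, -0.0314 for Igf1. With a fixed chip block they were -1.33 for Ctsg, 0.0624 for Dcn, -0.345 for Dnmt3b, 0.0738 for Gtsf1, 0.0166 for Izumo1r, 0.00792 for Nr5a1, 0.179 for Smc3, 0.274 for Sohlh2, 0.032 for Spin1. With chip as a random block they were -0.0106 for Dnmt3b. Without wild type 2 and 3 they were -0.0336 for Stag1, -0.0312 for Stag2. With 1 array left out the differences ran from -0.0104 to 0.0956 for Stag1, -0.152 to 0.168 for Igf1, -0.00662 to 0.0781 for Dnmt3b, -0.00897 to 0.0821 for Stag2, -0.119 to 0.0195 for Ybx2.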
